A study of Homo sapiens with 24 samples.

Results

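Transcript levels of 9 genes that supply or remove the deoxynucleoside triphosphates (dNTPs) of DNA synthesis were examined in 2 acute myeloid leukemia (AML) cell lines given 1 of 2 adenosine analogs. The 9 genes were RRM1, RRM2, RRM2B, TYMS, TK1, DUT, DCTD, CTPS1 and SAMHD1. They were chosen by symbol from a table of 23354 genes, and all 9 passed the filter on low counts in every fit. The series held 24 RNA-seq libraries in 12 groups of 2. MV4-11 and KG-1a cells, both labelled WT, were left untreated or were given 1 µM 8-chloro-adenosine (8CA) or 1 µM 8-amino-adenosine (8AA), and RNA was taken at 8 h or 24 h. The compounds differ in the group at position 8 of the adenine base, a chlorine atom in 8CA and an amino group in 8AA. Every culture, untreated ones included, was kept in Iscove's medium with fetal bovine serum. The replicates carried the letters A and B, and no source used here says whether they were separate cultures, so p-values measure the spread between these libraries, which may be technical.

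Cells make dNTPs along a de novo route and a salvage route. Ribonucleotide reductase removes the 2′-hydroxyl of ribonucleoside diphosphates; RRM1 is its large catalytic subunit, and RRM2, made mainly in S phase, and RRM2B, a p53-inducible gene, are alternative small subunits. Thymidylate is formed from dUMP by thymidylate synthase (TYMS) or from thymidine by thymidine kinase 1 (TK1). DUT hydrolyses dUTP to dUMP, and DCTD deaminates dCMP to dUMP, so both feed TYMS. CTPS1 makes CTP from UTP, the source of the cytidine nucleotides. SAMHD1 works in the other direction and hydrolyses dNTPs. It is known in leukemia as an enzyme that also hydrolyses the active form of cytarabine.

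The depth, as total counts, ran from 18633963 to 24520078 per library. Counts of the 2 libraries of a group differed by more than sampling noise in every group (chi-square per degree of freedom 1.43 to 5.20 in 11 groups), and the 2 libraries of KG-1a cells with 8AA at 24 h stood apart from each other (12.3). For that group most values of the 9 genes, and the counts and medians of gene lists, are therefore also given without each library. Values of other single genes rest on both libraries and were not recomputed in this way. Of 9 myeloid markers, MV4-11 libraries had 8 at a median of at least 1 CPM (reads of a gene scaled to a library of fixed size), with CD34 at 0.047 CPM. KG-1a libraries had only 4 of the 9 at that level: CD34 (397 CPM), CEBPA (70.2), SPI1 (6.49) and KIT (4.48). MPO, CD33, LYZ, FLT3 and CSF1R were below 1 CPM in KG-1a, whereas the T-cell receptor complex genes CD3D (245 CPM) and CD3E (31.6 CPM) were detected. These 2 were the only ones of 12 markers of other blood cells with a median of at least 1 CPM in KG-1a, and MV4-11 had 0 of the 12. The 12 summed to 207 to 335 CPM in KG-1a libraries and 0.82 to 3.01 CPM in MV4-11 libraries. The part of this in the results was not tested.

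Promoter stretches are shown only for members that held a match. The letters that match sites known from S-phase genes are in capitals. Short motifs of 3 kinds were searched on both strands: an E2F site (TTTCCCGC, TTTGGCGC, TTTCGCGC or TTTGCCGC), a CCAAT box (CCAAT) and a CHR element (TTTGAA or TTCGAA). Sequences are RefSeq's for GRCh38.p14, written 5′ to 3′ on the strand of the gene. The 250 bases before the start site are given whole for TYMS, RRM1 and SAMHD1. Matches on the opposite strand appear as their reverse complement.
TYMS, chr18:657403-657652, + strand: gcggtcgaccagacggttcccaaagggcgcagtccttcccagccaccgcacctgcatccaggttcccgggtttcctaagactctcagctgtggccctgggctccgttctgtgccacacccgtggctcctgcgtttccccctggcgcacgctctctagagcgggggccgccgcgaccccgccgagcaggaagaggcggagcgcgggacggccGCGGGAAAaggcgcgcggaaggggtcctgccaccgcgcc
RRM1, chr11:4094435-4094684, + strand: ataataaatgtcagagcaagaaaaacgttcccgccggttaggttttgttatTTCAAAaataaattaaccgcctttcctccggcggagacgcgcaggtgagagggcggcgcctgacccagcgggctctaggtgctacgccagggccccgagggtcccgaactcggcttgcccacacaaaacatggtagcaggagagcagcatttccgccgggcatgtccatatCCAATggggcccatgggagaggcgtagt
SAMHD1, chr20:36951709-36951958, - strand: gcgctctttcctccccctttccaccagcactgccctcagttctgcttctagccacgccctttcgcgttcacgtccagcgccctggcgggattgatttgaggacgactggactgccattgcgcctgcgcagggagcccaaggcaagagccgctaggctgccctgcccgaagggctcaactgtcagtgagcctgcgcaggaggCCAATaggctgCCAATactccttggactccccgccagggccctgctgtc
For RRM2 and TK1 only stretches around CCAAT boxes, and for DUT only the stretch with its E2F matches, are printed, to show these letters beside those of TYMS and RRM1.
RRM2, chr2:10122608-10122628, + strand: aggcgcagCCAATgggaaggg
RRM2, chr2:10122638-10122658, + strand: tggcacagCCAATgggaaggg
RRM2, chr2:10122665-10122685, + strand: caccaaagCCAATgggaaggg
TK1, chr17:78187117-78187137, - strand: gggcgctgATTGGccccatgg
TK1, chr17:78187086-78187106, - strand: ggctcgtgATTGGccagcacg
DUT, chr15:48332152-48332180, + strand: ctgGCGGGAAAtttcggtTTTGGCGCgct
The TYMS window held 1 E2F match, and the DUT stretch held 2, 1 on each strand. The same DUT window also held 2 CHR matches, which are not printed. RRM2 had 3 CCAAT boxes in a near-repeat in 1 of its windows, TK1 had 2 on the opposite strand, and RRM1 had 1 with a CHR match farther from the start. For RRM2, TK1 and DUT the window with the most matches was the one used. Of the 4 DUT windows 1 held an E2F match, and of the 2 TK1 windows 1 held a CCAAT box. SAMHD1, the member that was higher in MV4-11 at 24 h, also had 2 CCAAT boxes. CTPS1, the member called lower most often, and DCTD had 2 windows each, with no match of any of the 3 kinds. The matches thus do not follow which members were lower. No motif overlapped another in these stretches. Of the 8 members with a promoter window of 300 bases (250 before and 50 after the start; some have several windows, and a member counts once), 2 had an E2F match, 4 a CCAAT box and 2 a CHR match. Over 35116 such windows of all genes, 3.31% held the E2F letters, 34.6% a CCAAT box and 16.4% a CHR match. These shares are per window, and the 8 members had 15 windows. The counts of members therefore cannot be set against these shares. A match is a run of letters only, and no binding was measured.

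At 24 h most of the dNTP supply genes were lower with either drug in both lines, relative to other transcripts, while SAMHD1 was higher in MV4-11. RRM1, RRM2, DUT and CTPS1 were lower in all 4 comparisons at 24 h, TYMS and TK1 in 3 of the 4, DCTD in 1 and RRM2B in none. The call of RRM1 with 8AA in KG-1a was weakly held, as given below. Both drugs of a line were set against the same untreated libraries, so the 4 comparisons are not independent. The share of all genes lower in several of the 4 was not computed, here or for other genes below. A gene was called when its adjusted p (edgeR quasi-likelihood test, Benjamini-Hochberg over all genes of the fit) was under 0.05. The 2 libraries of a group also lay wholly above or below those of another group where none of the 9 was called. This held for 4 of the 9 with 8CA at 8 h in KG-1a. Between untreated times it held for 6 in MV4-11 and 5 in KG-1a. Groups that do not overlap are thus a description only, and the share over all genes was not computed. In MV4-11 at 24 h, 6 of the 9 genes were lower with 8CA (22.7% of all genes tested were) and 1 was higher (21.2%); with 8AA 6 were lower (15.3%) and 1 higher (13.9%). In KG-1a at 24 h, 6 were lower with 8CA (24%) and 5 with 8AA (26.6%), and 0 were higher with either (23.4% and 25.4% of all genes). Without 8AA replicate A the KG-1a counts for 8AA were 6 lower and 0 higher, and without replicate B 4 lower and 1 higher (TK1). The median log2 fold change of the 9 was -0.47 and -0.28 in MV4-11 and -0.33 and -0.24 in KG-1a, in the order 8CA and 8AA. The last of these was -0.29 without 8AA replicate A and -0.20 without B. The median over all genes tested lay between 0.0022 and 0.013. In these bulk libraries fewer cells of a type and less RNA per cell cannot be told apart. The scaling sets each level relative to the other transcripts of its library. A change in total RNA per cell would therefore not be seen, and lower and higher are meant in this relative sense.

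**Figure D1:**
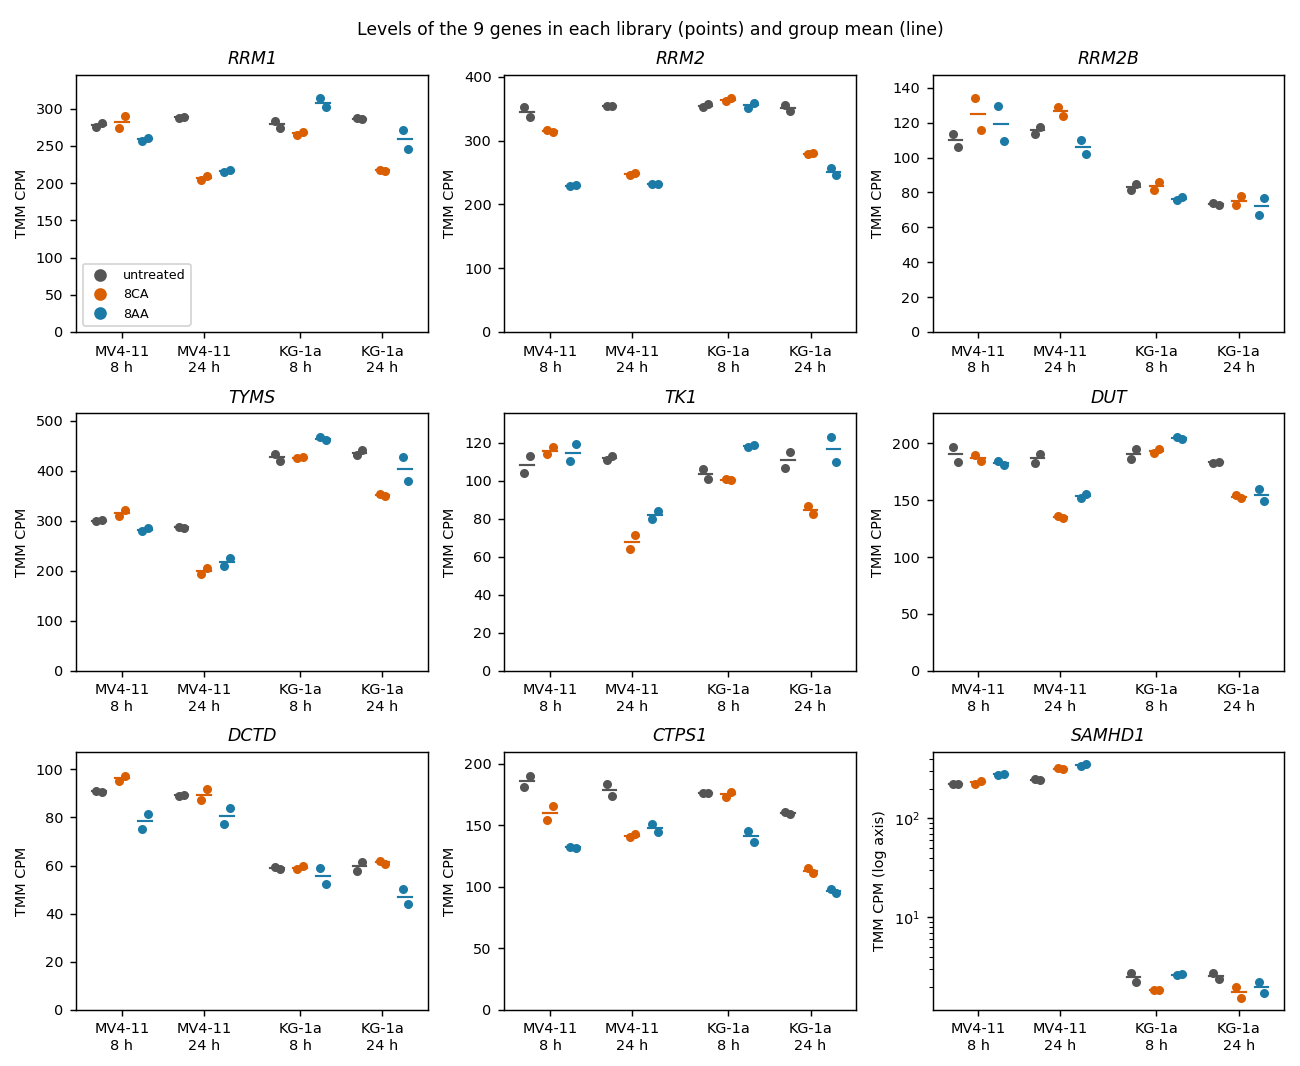
Level of each of the 9 genes in all 24 libraries (y axis: CPM after TMM scaling within the line; x axis: line and time; grey untreated, orange 8CA, blue 8AA; points are libraries, lines are means of 2). The axis starts at 0 except for SAMHD1, which has a log axis. At 24 h the treated points of RRM1, RRM2, DUT and CTPS1 lie under the untreated ones in both lines. Over both times SAMHD1 lies at 224 to 355 CPM in MV4-11 and 1.54 to 2.74 CPM in KG-1a.

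At 8 h fewer of the 9 genes were called, and RRM2 and CTPS1 in MV4-11 were called with both drugs. In MV4-11, 2 of the 9 genes were lower with 8CA (5.77% of all genes, with 4.58% higher), while 8AA gave 3 lower (15.6%) and 1 higher (13.6%). In KG-1a, 8CA gave 0 calls among the 9, with 0 at an unadjusted p under 0.05 and 0 by the DESeq2 Wald test; 0.881% of all genes were called in that comparison. With 8AA in KG-1a, 1 was lower (18%) and 2 were higher (16.7%). Leaving out 1 library moved 2 of these counts by over 1.5 times, and the 4 calls for 8AA in MV4-11 ran from 3 to 5. The 2 calls for 8CA in MV4-11 became 0 without 8CA replicate A and 1 without any other of the 4 libraries, and the 3 calls for 8AA in KG-1a became 1 without untreated replicate B, 8AA replicate A or 8AA replicate B. Untreated cultures at 24 h against 8 h gave 0 calls among the 9 in either line by this test and by DESeq2, with 1 (SAMHD1 in MV4-11) and 2 (RRM2B and CTPS1 in KG-1a) at an unadjusted p under 0.05, where 5.54% and 4.45% of all genes were called.

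**Figure D2:**
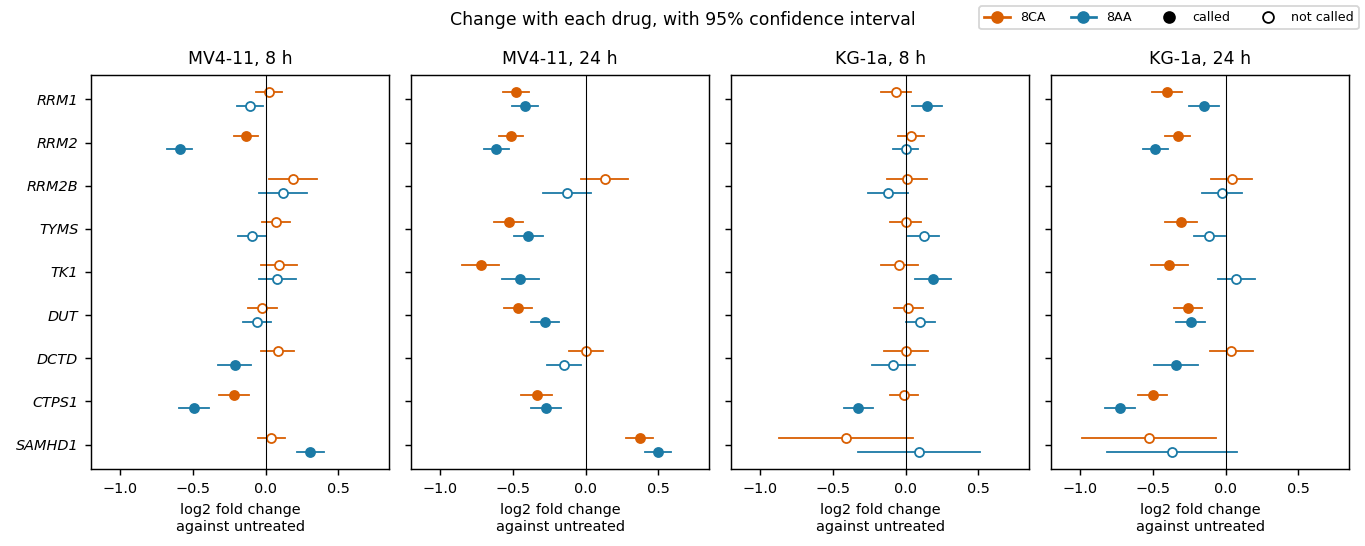
Log2 fold change of each gene against untreated cells of the same line and time (x axis), with its 95% confidence interval as a line (orange 8CA, blue 8AA; filled points were called, open points were not). RRM2 and CTPS1 are already lower at 8 h with 8AA in MV4-11, and the intervals of SAMHD1 in KG-1a are the widest.

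RRM2 was the subunit of ribonucleotide reductase that was lower in MV4-11 as early as 8 h. In MV4-11 the untreated libraries had 353 and 338 CPM at 8 h, against 317 and 313 under 8CA and 229 and 230.0 under 8AA. Both drug groups lay below the untreated group, 8AA the further of the 2. The log2 fold change was -0.59 ± 0.040 (SE, adjusted p = 1.42e-07) for 8AA and -0.13 ± 0.039 (SE, adjusted p = 0.0422) for 8CA. The 8CA call was lost without untreated replicate A (adjusted p = 0.219), 8CA replicate A (0.0817) or 8CA replicate B (0.146). At 24 h RRM2 stood at 354 and 354 CPM untreated, 247 and 249.6 under 8CA and 232 and 232 under 8AA. Both drug groups were then at a similar level, with log2 fold changes of -0.51 ± 0.039 (SE, adjusted p = 9.73e-08) for 8CA and -0.61 ± 0.040 (SE, adjusted p = 1.07e-07) for 8AA. In KG-1a RRM2 was not called at 8 h, where all 6 libraries had 352 to 367 CPM. At 24 h it went from 356 and 347 CPM untreated to 279 and 280.0 under 8CA and 257 and 246 under 8AA. The log2 fold changes were -0.33 ± 0.041 (SE, adjusted p = 9.6e-06) for 8CA and -0.48 ± 0.041 (SE, adjusted p = 1.3e-07) for 8AA. Without replicate A or B of the 8AA group the latter was -0.52 or -0.46.

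RRM1, the catalytic subunit, was lower at 24 h with both drugs in both lines. In MV4-11 the 6 libraries at 8 h had 257 to 291 CPM, and neither drug gave a call. The 8AA value at 8 h was -0.11 (95% interval -0.19 to -0.017, adjusted p = 0.0693), which was called with DESeq2 size factors (0.0484) and with the replicate block (0.0281). At 24 h the untreated libraries had 288 and 288 CPM, those with 8CA 204 and 209 and those with 8AA 214 and 218. The groups did not overlap, and the log2 fold changes were -0.48 ± 0.042 (SE, adjusted p = 3.64e-07) for 8CA and -0.42 ± 0.042 (SE, adjusted p = 6.03e-06) for 8AA. In KG-1a RRM1 was higher with 8AA at 8 h, 314 and 302 CPM against 284 and 274 untreated (log2 fold change 0.14 ± 0.048 SE, adjusted p = 0.0292). That call was lost without untreated replicate B (adjusted p = 0.172) or 8AA replicate A or B (0.199 and 0.0566), and by the DESeq2 Wald test (0.066). At 24 h in KG-1a it was 287 and 286 CPM untreated, 218 and 216 under 8CA and 271 and 246 under 8AA. The log2 fold change was -0.40 ± 0.049 (SE, adjusted p = 7.82e-06) with 8CA and -0.15 ± 0.048 (SE, adjusted p = 0.0177) with 8AA. The 8AA call is weakly held: RRM1 was at -0.083 (adjusted p = 0.0915) without 8AA replicate B and at -0.22 without replicate A, and the adjusted p was 0.0616 and 0.0653 without untreated replicate A and B. With library sizes as the only scaling it was -0.053 (adjusted p = 0.328), where the median of all genes moved to 0.11. The adjusted p was 0.207 with upper-quartile scaling and 0.0575 in a fit of 6 libraries.

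RRM2B gave no call against untreated cells by the test used here, under either drug, at either time, in either line. In MV4-11 it ranged from 102 to 134 CPM and in KG-1a from 67.3 to 86.3 CPM over all 12 libraries. The largest increase was 0.19 with 8CA at 8 h (95% interval 0.024 to 0.35, adjusted p = 0.136) and the largest decrease -0.13 with 8AA at 24 h (-0.29 to 0.038), both in MV4-11. The 8CA value at 8 h was called with no filter on low counts (adjusted p = 0.019) and with the replicate block (0.0338). At 24 h 8CA gave 0.13, called with no filter (0.0327) and in a fit of 6 libraries (0.0204). With 8AA at 8 h in MV4-11 the value was 0.12, and 0.24 (adjusted p = 0.0433) without 8AA replicate B. Of 25 other p53-inducible genes examined beside RRM2B, 24 were tested in MV4-11. At 8 h 11 of them were higher and 1 lower with 8CA (4.58% and 5.77% of all genes), and 7 higher and 4 lower with 8AA (13.6% and 15.6%). In KG-1a at 8 h, of 22 tested, 8CA gave 1 higher (0.881% of all genes called) and 8AA 8 higher and 5 lower (16.7% and 18%).

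Since RRM2 was lower and RRM2B was not called, the share of RRM2B in the small-subunit transcripts was computed for each library as counts per kb of RRM2B over those of RRM2 and RRM2B together. In untreated MV4-11 the share was 17.5% and 17.2% at 8 h and 17.4% and 18.0% at 24 h. With 8CA it was 21.8% and 19.6% at 8 h and 25.7% and 24.7% at 24 h, and with 8AA it was 27.1% and 23.9% at 8 h and 23.9% and 22.5% at 24 h. Every treated MV4-11 library lay above every untreated one. In KG-1a the 8 h libraries did not show this: 13.2% and 13.6% untreated, 12.9% and 13.4% under 8CA and 12.4% and 12.4% under 8AA. At 24 h the KG-1a shares were 12.1% ± 0.061 (SD, n = 2) untreated, 14.6% and 15.5% under 8CA and 14.8% and 17.1% under 8AA, and the treated libraries all lay above the untreated ones of that time. These shares restate the levels of both genes and were not tested.

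**Figure D3:**
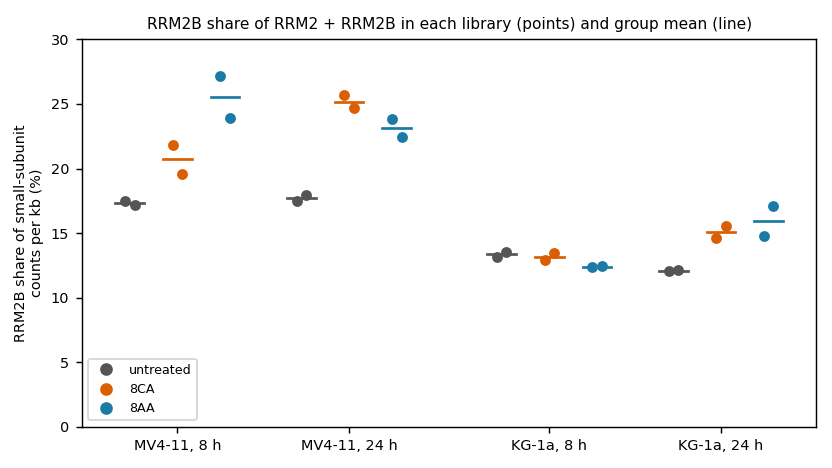
Share of RRM2B in the summed RRM2 and RRM2B counts per kb (y axis, percent) in each library, by line and time (x axis; grey untreated, orange 8CA, blue 8AA; lines are means of 2 libraries). Untreated MV4-11 libraries lie at 17.2% to 18.0% and treated ones at 19.6% to 27.1%.

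TYMS and TK1, the de novo and salvage sources of thymidylate, were lower at 24 h in MV4-11 with both drugs, and neither was called lower at 8 h. TYMS in MV4-11 at 24 h had 288 and 285 CPM untreated, 193 and 205 under 8CA and 211 and 226 under 8AA. The log2 fold changes were -0.53 ± 0.046 (SE, adjusted p = 3.88e-07) for 8CA and -0.39 ± 0.046 (SE, adjusted p = 2.1e-05) for 8AA. TK1 had the largest decrease of the 9 with 8CA in MV4-11: 111 and 113 CPM untreated became 64.3 and 71.5 under 8CA and 80.0 and 84.1 under 8AA. No treated library reached the untreated level, and the log2 fold changes were -0.72 ± 0.061 (SE, adjusted p = 2.75e-07) for 8CA and -0.45 ± 0.060 (SE, adjusted p = 6.66e-05) for 8AA. At 8 h in MV4-11 neither gene was called; TYMS ranged over 279 to 322 CPM and TK1 over 104 to 119 CPM.

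In KG-1a both genes were lower at 24 h with 8CA and were not called with 8AA. TYMS had 431 and 442 CPM untreated, 355 and 350.3 under 8CA (log2 fold change -0.31 ± 0.050 SE, adjusted p = 0.000131) and 428 and 379 under 8AA (-0.11 ± 0.050 SE, adjusted p = 0.0722). The 8AA value rests on which library is used: it was -0.20 (adjusted p = 4.73e-05) without replicate A and -0.031 without replicate B, and the adjusted p was 0.0483 with no filter and 0.0498 with the replicate block. TK1 had 107 and 115 CPM untreated, 86.7 and 82.8 under 8CA (-0.39 ± 0.060 SE, adjusted p = 7.54e-05) and 123 and 110.0 under 8AA (0.073 ± 0.059 SE, adjusted p = 0.311). The 8AA libraries thus overlapped the untreated ones, and without replicate B the TK1 change was 0.15 (adjusted p = 0.019), against -0.014 without replicate A. With library sizes as the only scaling TK1 was at 0.17 (adjusted p = 0.0191), and with upper-quartile scaling the adjusted p was 0.0459. At 8 h TK1 was higher with 8AA, 118 and 119 CPM against 106 and 101 (0.19 ± 0.059 SE, adjusted p = 0.0199). That call was lost without untreated replicate B (adjusted p = 0.144), 8AA replicate A (0.0778) or 8AA replicate B (0.0964). TYMS at 8 h with 8AA was 0.12 (95% interval 0.017 to 0.23) and was not called, but it was called with library sizes only (adjusted p = 0.0137), upper-quartile scaling (0.0489), the replicate block (0.0476) and a fit of 6 libraries (0.0046).

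The 2 genes that deliver dUMP behaved differently from each other. DUT was lower at 24 h in every comparison. In MV4-11 it had 183 and 191 CPM untreated, 136 and 134 under 8CA and 152 and 156 under 8AA, with log2 fold changes of -0.47 ± 0.046 (SE, adjusted p = 1.32e-06) for 8CA and -0.28 ± 0.046 (SE, adjusted p = 0.000316) for 8AA. In KG-1a DUT had 183 and 184 CPM untreated, 154 and 152 under 8CA and 160.3 and 149.8 under 8AA, with -0.26 ± 0.047 (SE, adjusted p = 0.000302) for 8CA and -0.24 ± 0.046 (SE, adjusted p = 0.000449) for 8AA. Treated and untreated DUT libraries did not overlap in either line at 24 h, and at 8 h there was no call, though with 8AA in KG-1a DUT was called higher with library sizes only (adjusted p = 0.022) and in a fit of 6 libraries (0.0381). The KG-1a value with 8AA was -0.29 and -0.20 without replicate A and B. DCTD was lower with 8AA in MV4-11 at 8 h and in KG-1a at 24 h, and it was not called with 8CA in either line. In MV4-11 at 8 h it had 91.0 and 90.8 CPM untreated, 95.1 and 97.4 under 8CA and 75.4 and 81.3 under 8AA (-0.21 ± 0.055 SE, adjusted p = 0.00813 for 8AA). Without 8AA replicate A the adjusted p was 0.0815. In MV4-11 at 24 h the 8AA value was -0.15 ± 0.055 (SE, adjusted p = 0.0536), and -0.21 (adjusted p = 0.0253) without 8AA replicate B, and it was also called with DESeq2 size factors (0.0484), the replicate block (0.0195) and a fit of 6 libraries (0.0416). In KG-1a at 24 h DCTD had 57.7 and 61.6 CPM untreated, 62.0 and 60.6 under 8CA and 50.1 and 44.0 under 8AA, a log2 fold change of -0.34 ± 0.071 (SE, adjusted p = 0.00088) with 8AA. It was -0.44 and -0.25 without 8AA replicate A and B.

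CTPS1 was the member called most often, in 7 of the 8 comparisons with untreated cells, each time lower. In MV4-11 at 8 h it had 181 and 190.4 CPM untreated, 155 and 166 under 8CA and 133 and 132 under 8AA. The 3 groups did not overlap, with log2 fold changes of -0.22 ± 0.049 (SE, adjusted p = 0.0113) for 8CA and -0.49 ± 0.049 (SE, adjusted p = 4.3e-06) for 8AA. The 8CA call was lost without untreated replicate B (adjusted p = 0.0718) or 8CA replicate A (0.0849). At 24 h in MV4-11 the values were 183 and 174 CPM untreated, 140.2 and 143 under 8CA (-0.34 ± 0.049 SE, adjusted p = 5.3e-05) and 151 and 145 under 8AA (-0.27 ± 0.049 SE, adjusted p = 0.000729). In KG-1a the largest decreases came with 8AA. At 8 h CTPS1 was at 176 and 177 CPM untreated, 173 and 177 under 8CA and 145 and 137 under 8AA (-0.32 ± 0.046 SE, adjusted p = 7.33e-05 for 8AA). At 24 h it was at 161 and 159.6 CPM untreated, 115 and 111 under 8CA and 98.5 and 95.1 under 8AA. The log2 fold changes were -0.50 ± 0.047 (SE, adjusted p = 6.47e-07) for 8CA and -0.73 ± 0.048 (SE, adjusted p = 9.63e-09) for 8AA, the latter -0.76 and -0.70 without 8AA replicate A and B. The second CTP synthase gene, CTPS2, was not lower: its changes at 24 h were 0.26 and 0.023 in MV4-11 and 0.25 and 0.22 in KG-1a, for 8CA and 8AA, and 3 of the 4 were called higher (adjusted p = 0.00747, 0.0214 and 0.0318; 0.841 with 8AA in MV4-11).

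SAMHD1, the dNTP hydrolase, was the only one of the 9 that was higher in MV4-11 at 24 h. It had 251 and 242 CPM untreated, 321 and 316 under 8CA and 341 and 355 under 8AA. The 3 groups did not overlap, and the log2 fold changes were 0.37 ± 0.043 (SE, adjusted p = 7.15e-06) for 8CA and 0.50 ± 0.043 (SE, adjusted p = 1.93e-06) for 8AA. At 8 h it had 224 and 225 CPM untreated, 224 and 238 under 8CA and 276 and 279.8 under 8AA. Only 8AA gave a call at 8 h (0.31 ± 0.044 SE, adjusted p = 8.78e-05), while 8CA was at 0.041 (95% interval -0.052 to 0.13). These 3 calls held with each library left out in turn. In KG-1a SAMHD1 had few reads, with 31 to 62 counts per library (1.54 to 2.74 CPM) against 4464 to 8056 counts in MV4-11. No KG-1a comparison gave a call, and the intervals were wide, for example -0.99 to -0.065 around -0.52 with 8CA at 24 h (adjusted p = 0.0573, and 0.0492 with the replicate block and 0.0409 in the fit of all 24 libraries). With 8AA at 24 h the value was -0.37 (-0.81 to 0.076), -0.57 without 8AA replicate A and -0.21 without B. With so few reads, the size of the SAMHD1 changes in KG-1a was poorly determined at this depth.

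The 2 drugs were compared directly at the same dose, line and time, which gave 36 tests over the 9 genes. In MV4-11 at 8 h, 4 genes were lower with 8AA than with 8CA (3.7% of all genes) and 1 was higher (2.96%). RRM2 differed most, by -0.46 ± 0.040 (SE, adjusted p = 6.21e-06), then DCTD (-0.30 ± 0.054 SE, adjusted p = 0.00406), CTPS1 (-0.28 ± 0.049 SE, adjusted p = 0.00354) and TYMS (-0.17 ± 0.046 SE, adjusted p = 0.0408). SAMHD1 was higher with 8AA (0.27 ± 0.044 SE, adjusted p = 0.00175). Leaving out 8CA replicate B left 3 of these 5 calls, without CTPS1 (adjusted p = 0.0536) and TYMS (0.218). TYMS was also lost without 8CA replicate A (0.0868), 8AA replicate A (0.171) or 8AA replicate B (0.108). For RRM1, RRM2B, TK1 and DUT the 95% intervals of the difference at 8 h were -0.22 to -0.039, -0.23 to 0.094, -0.14 to 0.11 and -0.13 to 0.060.

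At 24 h the called differences between the drugs in MV4-11 were small and mostly for genes not called at 8 h. Of the genes called at 8 h, TYMS was now higher with 8AA and SAMHD1 was again higher. RRM2, DCTD and CTPS1 were not called. There, 4 genes were higher with 8AA than with 8CA (11.7%) and 1 was lower (9.48%): TK1 (0.27 ± 0.062 SE, adjusted p = 0.0055), DUT (0.19 ± 0.046 SE, adjusted p = 0.00926), TYMS (0.14 ± 0.047 SE, adjusted p = 0.0499) and SAMHD1 (0.13 ± 0.043 SE, adjusted p = 0.0466) were higher and RRM2B (-0.26 ± 0.077 SE, adjusted p = 0.0262) was lower. A single library can end these calls. The count was 0 without 8CA replicate A, 1 without 8CA replicate B and 1 without 8AA replicate B, with adjusted p for TK1 of 0.105, 0.00551 and 0.0634, for DUT 0.0602, 0.0747 and 0.0834, and for RRM2B 0.161, 0.061 and 0.199. For TYMS they were 0.384, 0.0528 and 0.384, for SAMHD1 0.148, 0.215 and 0.28, and SAMHD1 was lost also without 8AA replicate A (0.0662). DCTD was not called (-0.15 ± 0.054 SE, adjusted p = 0.0605) but was without 8AA replicate B (0.0382). For RRM1, RRM2 and CTPS1 the intervals of the difference were -0.024 to 0.15, -0.18 to -0.015 and -0.037 to 0.17.

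In KG-1a the compounds differed in opposite directions for different members. At 8 h RRM1 (0.21 ± 0.048 SE, adjusted p = 0.0041) and TK1 (0.24 ± 0.059 SE, adjusted p = 0.00685) were higher with 8AA than with 8CA (14.7% of all genes), and CTPS1 (-0.31 ± 0.046 SE, adjusted p = 0.000129) was lower (15.8%). RRM1 lost its call without 8AA replicate A (adjusted p = 0.0567) and TK1 without 8CA replicate B (0.0539). At 24 h 3 genes were higher with 8AA (20.3%): TK1 (0.46 ± 0.059 SE, adjusted p = 1.76e-05), RRM1 (0.25 ± 0.049 SE, adjusted p = 0.000639) and TYMS (0.20 ± 0.050 SE, adjusted p = 0.00539). The other 3 called were lower (21.7%): DCTD (-0.38 ± 0.071 SE, adjusted p = 0.000508), CTPS1 (-0.23 ± 0.048 SE, adjusted p = 0.0015) and RRM2 (-0.15 ± 0.041 SE, adjusted p = 0.00698). These 6 calls held without either 8AA library; TK1 was then 0.38 (without replicate A) and 0.54 (without B), RRM1 0.18 and 0.32, TYMS 0.11 and 0.28, DCTD -0.48 and -0.29, CTPS1 -0.25 and -0.20, and RRM2 -0.19 and -0.13. RRM2B, at -0.063, was called lower without replicate B (-0.16, adjusted p = 0.0278). The intervals for DUT (-0.080 to 0.12) and SAMHD1 (-0.31 to 0.63) include 0.

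**Figure D4:**
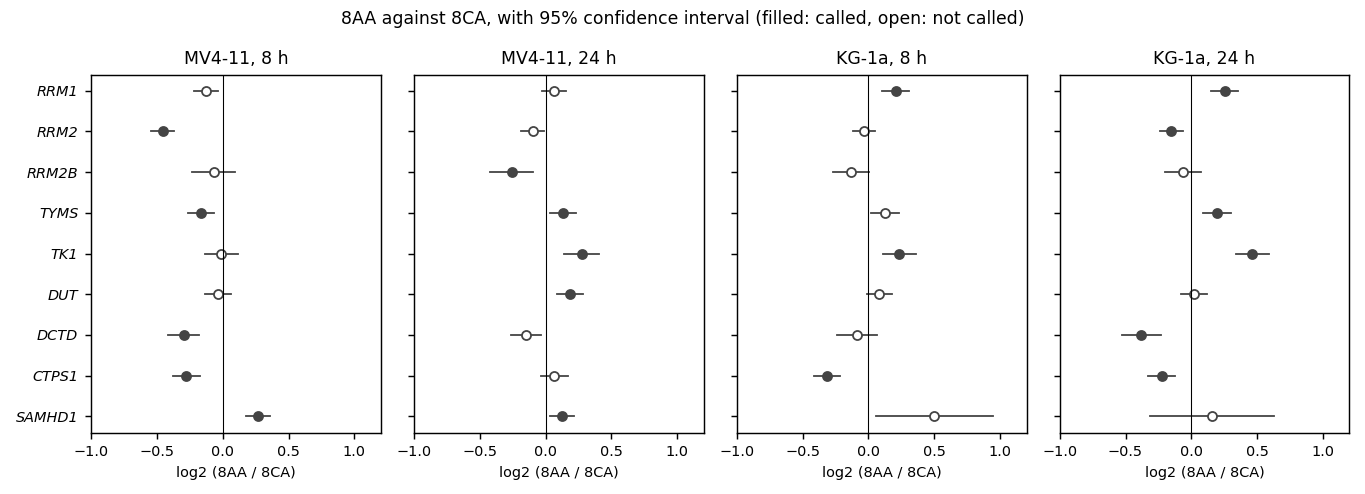
Direct comparison of the drugs: log2 ratio of 8AA to 8CA (x axis) for each gene, with its 95% confidence interval, in each line and time (filled points were called, open points were not). TK1 lies to the right (higher with 8AA) in 3 panels, and CTPS1 to the left in 3.

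The responses at 24 h and 8 h were then compared within each line and drug. With 8CA in MV4-11, 5 members had a lower response at 24 h (9.83%) and 1 a higher one (6.48%); TK1 changed most, from 0.093 at 8 h to -0.72 (difference -0.81 ± 0.085 SE, adjusted p = 2.98e-05). In KG-1a 6 members had a lower 8CA response at 24 h (12.7%, with 11.2% of all genes higher), led by CTPS1 (-0.49 ± 0.066 SE, adjusted p = 9.1e-05). With 8AA the lower count was 3 in MV4-11 (2.12%, with 2.51% of all genes higher) and 5 in KG-1a (10.7%, with 7.64% higher). RRM2 in MV4-11 had nearly its full 8AA decrease by 8 h: its difference between times was -0.024 (95% interval -0.14 to 0.095). In KG-1a the same gene went from 0.0017 to -0.48, a difference of -0.49 ± 0.058 (SE, adjusted p = 7.11e-05), and -0.52 and -0.46 without 8AA 24 h replicate A and B.

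Untreated levels of the 9 genes, per kb of transcript, fell in the same order in both lines apart from SAMHD1 and the close pair RRM1 and TK1. TYMS was highest, at 186 to 197 CPM per kb over the 4 untreated MV4-11 libraries and 259 to 269 in KG-1a. RRM2 came next (102 to 107 and 97.3 to 101), then DUT (84.2 to 90.2 and 78.5 to 84.8). RRM1 (69.8 to 73.2 and 65.6 to 68.0) and TK1 (67.4 to 73.3 and 61.9 to 69.7) overlapped in both lines. In MV4-11 the SAMHD1 level of 72.5 to 81.4 overlapped both of these. CTPS1 (48.0 to 52.6 and 41.1 to 46.0), DCTD (45.0 to 45.9 and 27.2 to 29.0) and RRM2B (21.1 to 23.3 and 13.4 to 15.9) were lower, with no overlap between neighbours within a line. In KG-1a SAMHD1 was last, at 0.68 to 0.84 CPM per kb.

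**Figure D5:**
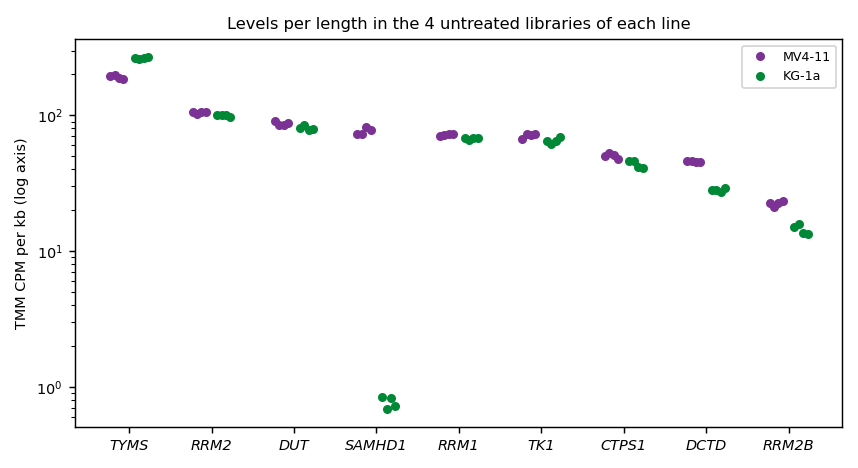
Level per kb of transcript of each gene in the 4 untreated libraries of each line (y axis, log scale: TMM CPM per kb over all 24 libraries; x axis: gene, ordered by level in MV4-11; purple MV4-11, green KG-1a). SAMHD1 is the only gene whose lines lie far apart, 72.5 to 81.4 in MV4-11 and 0.68 to 0.84 in KG-1a.

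Between the untreated lines SAMHD1 differed by a log2 ratio of 6.58 ± 0.083 (SE, adjusted p = 6.77e-27) at 8 h and 6.68 ± 0.082 (SE, adjusted p = 4.52e-27) at 24 h, that is 95.9-fold and 103-fold higher in MV4-11. Of all genes, 40.1% were higher in MV4-11 at 8 h and 42.1% lower, and 41% and 41% at 24 h, so a call between the lines is common. Of the 9, 5 were higher and 1 lower at 8 h, and 7 higher and 1 lower at 24 h. TYMS was the member lower in MV4-11 (-0.42 and -0.51). DCTD (0.71 and 0.68) and RRM2B (0.49 and 0.76) were higher at both times, with adjusted p from 2.46e-06 to 4.65e-10, and CTPS1 was at 0.16 and 0.26. The differences of RRM1, RRM2, TK1 and DUT were 0.044 to 0.15. With library sizes as the only scaling the median of all genes at 24 h was -0.11, RRM1, RRM2 and DUT were at -0.00054, 0.0030 and 0.020 and were no longer called, and at 8 h TK1 and CTPS1 lost their calls (0.075 and 0.083).

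The drug responses of the 2 lines differed for some members. For 8CA at 8 h there were 0 calls among the 9, with 3 (RRM2, SAMHD1 and CTPS1) at an unadjusted p under 0.05 and 0 by DESeq2 (1.15% of all genes were called). For 8AA at 8 h RRM2 had the more negative response in MV4-11 (-0.55 ± 0.053 SE, adjusted p = 5.18e-07), 1 of 2 members with a lower response (3.6%, with 7.49% of all genes higher); the second, RRM1, is given with the other differences that depend on 1 library in the closing section. For 8CA at 24 h 2 members were called, TK1 lower (5.44%) and SAMHD1 higher (5.76%) in MV4-11. Leaving out 1 library gave 0 to 2 calls, with 0 without untreated KG-1a replicate A, where SAMHD1 had an adjusted p of 0.0519 and TK1 of 0.145. TK1 was also lost without MV4-11 untreated replicate A (0.0569) or B (0.0878), MV4-11 8CA replicate A (0.167) or KG-1a 8CA replicate A (0.0789). For 8AA at 24 h RRM1, TYMS and TK1 had a lower response in MV4-11 (8.51%) and SAMHD1 and CTPS1 a higher one (13.8%). CTPS1 went from -0.73 in KG-1a to -0.27 in MV4-11 (difference 0.48 ± 0.068 SE, adjusted p = 1.34e-05, from the fit of all 24 libraries). TK1 went from 0.073 to -0.45 (-0.50 ± 0.089 SE, adjusted p = 0.000183). Without KG-1a 8AA replicate A and B these differences were 0.50 and 0.38 for CTPS1 and -0.42 and -0.66 for TK1. SAMHD1 differed by 0.89 ± 0.18 (SE, adjusted p = 0.000682), a value that rests on the 31 to 62 counts of KG-1a.

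Other genes of dNTP and pyrimidine metabolism were more often lower than higher at 24 h. All 35 such genes passed the low-count filter in MV4-11, and 33 did in KG-1a. At 24 h in MV4-11, 8CA gave 18 lower and 4 higher (22.7% and 21.2% of all genes) and 8AA gave 12 and 3 (15.3% and 13.9%). In KG-1a, 8CA gave 21 lower and 5 higher (24% and 23.4%) and 8AA gave 18 and 5 (26.6% and 25.4%). The KG-1a counts for 8AA became 20 and 4 without replicate A and 18 and 6 without B. The median log2 fold changes were -0.23, -0.14, -0.26 and -0.24 in the order of these counts, and the last was -0.28 without replicate A and -0.21 without B. Along the de novo pyrimidine route CAD, which carries out its opening steps, and UMPS, which makes UMP, were lower in all 4 comparisons at 24 h (changes of -0.83 to -0.14 and -0.32 to -0.13). DHODH, the enzyme between them, was lower in 2, both in KG-1a (-0.46 and -1.01), and was at -0.16 and -0.024 in MV4-11 for 8CA and 8AA. Among the nucleotide kinases NME1 (-1.03 to -0.45), NME4 (-0.51 to -0.18) and DTYMK (-0.67 to -0.17), the thymidylate kinase, were lower in all 4. SHMT1 (-0.34 to -0.24), which serves the folate cycle of TYMS, was lower in all 4.

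Of the nucleotide clean-up enzymes, DCTPP1 (-0.95 to -0.28) was lower in all 4 comparisons at 24 h and NUDT1 (-0.64 to -0.055) in 3. PNP (-0.69 to -0.25), a purine nucleoside phosphorylase, and SLC29A1 (-1.03 to -0.30), the equilibrative nucleoside transporter, were lower in all 4. Some genes were higher. TK2, the mitochondrial thymidine kinase, was higher in all 4 (0.34 to 0.97), while TK1 was lower in 3. NT5C2, a nucleotidase, was higher in 3 (0.078 to 0.32). ADA, adenosine deaminase, was higher in 3 and lower in 1, with 0.27 and 0.51 in MV4-11 and -0.26 and 0.50 in KG-1a for 8CA and 8AA.

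S-phase replication genes were examined because RRM2, TYMS and TK1 are known to be expressed with them. Against the same shares of all genes, of 24 such genes 23 were lower with 8CA and 24 with 8AA in MV4-11 at 24 h, and in KG-1a 8CA gave 19 lower and 1 higher, 8AA 16 lower and 1 higher (17 and 1 without replicate A, 14 and 2 without B). Their medians were -0.50, -0.39, -0.30 and -0.19, the last -0.28 without replicate A and -0.15 without B. CCNE1, cyclin E1, changed by -1.09 to -0.49 and GINS2, a subunit of the replicative helicase complex, by -0.73 to -0.47 over the 4 comparisons, each called lower in all 4. At 8 h in MV4-11 17 of the 24 were lower with 8AA (15.6% of all genes) and 6 with 8CA (5.77%), with 1 higher (4.58%). In KG-1a at 8 h the direction was mixed, with 5 lower and 7 higher under 8AA (18% and 16.7% of all genes, median 0.045) and a median of -0.042 under 8CA. The part of a changed share of S-phase cells in the member values was not tested.

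The p53 targets and interferon-stimulated genes, the latter examined because SAMHD1 can be induced by interferon, gave mixed counts at 24 h, several of them near the share of all genes. With 8AA in KG-1a, however, 10 of 16 interferon-stimulated genes were higher, against 25.4% of all genes. Of these p53 targets 7 were higher and 2 lower with 8CA in MV4-11 (24 tested; 21.2% and 22.7% of all genes), and 8AA gave 3 and 3 (13.9% and 15.3%). In KG-1a (22 tested) 8CA gave 8 higher and 4 lower (23.4% and 24% of all genes), 8AA 10 and 7 (25.4% and 26.6%; 9 and 6 without replicate A, 10 and 7 without B). Their medians were 0.087, -0.047, 0.034 and 0.12, the last 0.13 without replicate A and 0.12 without B. TP53INP1 was at 1.09 and 0.82 in MV4-11 and 0.023 and 2.62 in KG-1a for 8CA and 8AA, with adjusted p = 4.79e-06, 0.000193, 0.954 and 4.76e-08. SESN2 was at 0.66, -0.34, 2.75 and -0.45 (adjusted p = 0.000277, 0.054, 1.61e-12 and 0.00269). Of the interferon-stimulated genes 10 were tested in MV4-11, where 1 was higher under 8CA and 2 under 8AA, against 21.2% and 13.9% of all genes. In KG-1a 16 were tested, and against the shares just given 8CA led to 5 higher and 4 lower, and 8AA gave 10 higher and 1 lower (9 and 1 without replicate A, 11 and 1 without B). The medians were 0.13, 0.39, -0.028 and 0.27, the last 0.23 without replicate A and 0.27 without B, where 17 were tested. OAS1 and IFIT2, tested in KG-1a only, were at -1.19 and -1.04, and at 0.61 and 0.75, with adjusted p from 1.09e-05 to 0.00151. At 8 h 8AA gave 4 higher and 0 lower of the 10 interferon-stimulated genes in MV4-11 (13.6% and 15.6% of all genes). In KG-1a at 8 h it gave 7 higher and 0 lower of 16 (16.7% and 18%). With 8CA at 8 h 0 of them were called in either line. Of all genes, 4.58% were then higher and 5.77% lower in MV4-11, and 0.881% were called in KG-1a.

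For each member the 2 genes with the most similar 8 log2 fold changes were sought among 14054 genes in the fit of all 24 libraries, by the root mean square of the differences. RRM1 was nearest to MCM5 (0.034) and PCNA (0.050), where the median over all genes was 0.38. TYMS was nearest to RRM1 itself (0.050) and PCNA (0.052; median 0.37). RRM2 was nearest to MCM10 (0.11) and TIMM23 (0.12; median 0.49), and TK1 to BIRC5 (0.082) and EPB41L2 (0.094; median 0.44). DUT was nearest to NDUFA9 (0.037) and CENPP (0.040), DCTD to DNAJC19 (0.060) and ATG7 (0.062), and RRM2B to C18orf21 (0.049) and ASB3 (0.060). The medians were 0.35, 0.30 and 0.28. The root mean square of the member's own changes was 0.22 for DUT, 0.15 for DCTD and 0.12 for RRM2B, against 0.27 for RRM1. The short distances of DCTD and RRM2B are thus partly those of small changes. CTPS1 was nearest to ATAD3A (0.051) and PPIF (0.064; median 0.50). SAMHD1 had no close match, with MPZL1 at 0.15 and OPN3 at 0.15 (median 0.45). Its changes in KG-1a rest on few reads, so its distances to all genes also carry that spread. The comparisons share untreated libraries, so these distances are a description.

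Reads of some members could be shared with other genes, and whether the counting used strand is not stated in the sources used here. The gene span of TYMS overlaps ENOSF1 by 3176 bases on the opposite strand, and ENOSF1 had 42865 counts over all libraries against 174282 for TYMS. In KG-1a at 24 h ENOSF1 was at 0.49 ± 0.050 (SE, adjusted p = 1.27e-06) with 8CA and -0.24 ± 0.051 (SE, adjusted p = 0.00109) with 8AA. The deposited span of LOC100133331, on the opposite strand, covers all 33229 bases of the CTPS1 span. LOC100133331 had 3738 counts against 76946 for CTPS1. An overlap of spans does not show that the transcripts share sequence, which was not examined. Processed pseudogenes are annotated for DUT (8), RRM2 (3) and TYMS (2) in GENCODE, none with a row in the count table, so reads from them cannot be told apart from those of the parent genes where they align as well.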

How the data were processed

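RNA-seq was done on 24 libraries of MV4-11 and KG-1a cells, 12 groups of 2 given by the labels' line, drug and time (the hours of untreated libraries come from their titles). The deposited values were read counts per gene, made by the authors before deposit and not normalized. The submitters' processing notes name Trimmomatic, STAR 2.6.0, HTSeq 0.11.1, edgeR and the builds hg19 and hg38, with no role for each, and neither strand use nor pooling is stated in them. Depth was 18633963 to 24520078 counts per library. No mitochondrial gene had a row.

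Counts as deposited were tested in R 4.3.3 with edgeR 4.0.16 (TMM scaling, filterByExpr with a minimum count of 10, glmQLFit and glmQLFTest, Benjamini-Hochberg over all genes, threshold 0.05). The fit used the 12 libraries of a line (12800 genes in MV4-11, 12711 in KG-1a), or all 24 (14055 genes) for differences between lines. A standard error was the log2 fold change over the square root of F. Levels are CPM after TMM scaling, and per kb of the deposited transcript length where genes are compared with each other. The procedure was tested on simulated data. Leaving out the 2 KG-1a libraries with 8AA at 24 h in turn for the list counts was chosen after seeing the data. Other scalings, filters, libraries in the fit, a replicate block, DESeq2 1.42.0 and leaving out each library were tried.

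The 9 genes and the lists were chosen with earlier results of these data known. Named besides the 9 were genes of dNTP and pyrimidine metabolism called the same way in at least 3 of the 4 comparisons at 24 h, DHODH (added after its values were seen, to complete the route), up to 2 genes per other list by mean absolute change, the 2 nearest patterns per gene, and ENOSF1 and LOC100133331 as overlapping genes. Some genes that met this rule are not reported here. Deposited gene spans overlapped the GRCh38 annotation for only 14.1% of 22414 shared symbols, so they are not GRCh38 positions. They were not compared with hg19, the other build named, and their coordinates are not printed. Promoter sequences and their positions are RefSeq's (GRCh38.p14), with 8 of the 9 genes matched by symbol and RRM2B not. Protein sequences were not used here.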

Additional observations from a re-analysis of the deposited data

Results flagged for a closer look

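Results listed here are differences between 2 responses that passed the test of the difference itself (edgeR, adjusted p under 0.05), for time (24 h minus 8 h) or line (MV4-11 minus KG-1a). No explanation was tested. With 8CA in MV4-11 the response at 24 h differed from that at 8 h for TK1 (-0.81), TYMS (-0.60), RRM1 (-0.50), DUT (-0.44), RRM2 (-0.38) and SAMHD1 (0.33), with adjusted p from 2.98e-05 to 0.00201. These 6 held without each library in turn. With 8AA in MV4-11 it differed for TK1 (-0.53, adjusted p = 0.00366), RRM1 (-0.31, 0.00946) and TYMS (-0.30, 0.0168). TYMS was lost without untreated 8 h replicate B (adjusted p = 0.0508), untreated 24 h replicate A (0.059) or B (0.0613), or 8AA 24 h replicate A (0.0667), and DUT was gained without untreated 8 h replicate A (0.044).

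In KG-1a the 8CA response differed between times for CTPS1 (-0.49), RRM2 (-0.37), TK1 (-0.34), RRM1 (-0.34), TYMS (-0.31) and DUT (-0.28), with adjusted p from 9.1e-05 to 0.00787; TK1 was lost without untreated 24 h replicate B (0.0513). The 8AA response differed for RRM2 (-0.49), CTPS1 (-0.40), DUT (-0.34), RRM1 (-0.29) and TYMS (-0.24), with adjusted p from 7.11e-05 to 0.0309. TYMS was lost without untreated 8 h replicate B (adjusted p = 0.0994), 8AA 8 h replicate A or B (0.103 and 0.0685) or untreated 24 h replicate A or B (0.0551 and 0.109). TK1 was gained without 8AA 24 h replicate A (0.0265), and DCTD without that library (0.00372) or 8AA 8 h replicate B (0.0456).

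Between the lines the 8AA response at 8 h differed for RRM2 (-0.55) and RRM1 (-0.21, adjusted p = 0.0341). RRM1 was lost, leaving RRM2, without MV4-11 untreated replicate A or B (0.0604 and 0.106), MV4-11 8AA replicate A (0.112), KG-1a untreated replicate B (0.134) or KG-1a 8AA replicate A (0.151), and without MV4-11 8AA replicate B (0.0508). The 8CA response at 24 h differed for SAMHD1 (0.92, adjusted p = 0.00161) and TK1 (-0.31, 0.0251), whose dependence on 1 library is given in the report. The 8AA response at 24 h differed for CTPS1 (0.48), TK1 (-0.50), SAMHD1 (0.89), TYMS (-0.26, adjusted p = 0.0083) and RRM1 (-0.25, 0.00617). TYMS was lost without MV4-11 8AA replicate A (0.0625) or KG-1a 8AA replicate A (0.0508). RRM2 was gained without KG-1a 8AA replicate B (0.00419) and DCTD without KG-1a 8AA replicate A (0.0186). With 2 libraries per group no group could be tested for a sample apart.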

How the results depend on the processing

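Of the values of single genes recomputed under other settings with all libraries, 1681 kept their direction and side of the threshold (a change of sign between 2 uncalled values counted as kept), 74 gained a call, 26 lost one and 1 reversed: RRM1 between the untreated lines at 24 h was -0.00054 with library sizes as the only scaling. Of the counts of members called, 182 stayed within 1.5 times and 16 did not. The 2 calls for 8CA at 8 h in MV4-11 became 1 with library size only, upper-quartile scaling or a fit of 6 libraries. The 3 calls for 8AA at 8 h in KG-1a became 5 with library size only or a fit of 6 libraries. Between the drugs, the 5 calls in MV4-11 at 24 h became 3 with DESeq2 size factors, the DESeq2 Wald test or a fit of all 24 libraries, and the 3 in KG-1a at 8 h became 5 with a fit of 6 libraries. For the 8CA response between lines at 24 h, 2 calls became 4 with library size only and 5 with upper-quartile scaling or at least 10 counts in every library, and between untreated lines at 24 h 8 became 5 with library size only. With untreated times in MV4-11, 0 became 1 (SAMHD1) with library size only.

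The letters A and B do not pair samples in the labels, and same-letter deviations correlated at -0.12 to 0.16 between groups. With the replicate block the 8AA response between times in MV4-11 had 6 calls in place of 3, and the untreated times in MV4-11 1 in place of 0. The block gained 13 calls of single genes and lost none. Those against untreated cells were RRM2B (8CA) and RRM1 (8AA) at 8 h and DCTD (8AA) at 24 h in MV4-11, and TYMS (8AA) at 8 h, TYMS (8AA) at 24 h and SAMHD1 (8CA) at 24 h in KG-1a, whose adjusted p are given in the report. Among the 3 MV4-11 groups at 8 h the same-letter correlations were 0.13 to 0.16.

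Leaving out 1 library gave 0 to 1 calls for 8CA at 8 h in MV4-11, 1 to 3 for 8AA at 8 h in KG-1a, 3 to 4 and 0 to 4 between the drugs in MV4-11 at 8 h and 24 h, and 1 to 2 and 0 to 2 between lines for 8AA at 8 h and 8CA at 24 h. The lone sample of a group was then assumed to vary like the others. With library size only, the lower share of all genes called fell from 51.2% to 35.5% with 8AA at 24 h in KG-1a, from 52.4% to 36.2% with 8AA at 24 h in MV4-11 and from 51.8% to 41.1% with 8CA at 24 h in MV4-11. At 8 h it fell from 55.8% to 38.3% (8CA, MV4-11), from 53.4% to 38.8% (8AA, MV4-11) and from 51.9% to 41.8% (8AA, KG-1a). The 112 genes called with 8CA at 8 h in KG-1a became 272 with no low-count filter, 205 with the block, 184 with 24 libraries and 503 with 6. The cause of these shifts was not tested. Depth limited SAMHD1 in KG-1a only, and 2 libraries per group limit every error given.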
